A study of Mus musculus with 6 samples.

Results

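Interferon-induced and antigen presentation genes were followed in hippocampus of Phf8 knockout (KO) and wild-type (WT) mice, as a set of 43 genes taken by symbol. Of these, 41 have an array probe set that names no other gene, out of 18193 genes named in that way on the whole array. Rsad2 and Isg20 were selected on their KO minus WT difference in earlier results of these same arrays, and the other 41 genes were added by function with those results in view. The differences of Rsad2 and Isg20 are therefore a description, and no p-value is given for them.

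Each group had 3 samples, with 1 Affymetrix mouse array for each, of hippocampus taken at 10 weeks of age on a C57BL/6 background. KO mice were Phf8 -/Y males whose loxP-flanked exons for the JmjC demethylase domain had been deleted in the germline with EIIa-Cre, so the deletion is not limited to a cell type. Phf8 encodes a histone demethylase. The allele was made on another mouse background and backcrossed to C57BL/6J, and WT mice were male littermates with no treatment listed for either group. The methods speak of hippocampus of 3 mice tested as a sample and do not say whether each array was made from a single animal or a pool, so the spread and p-values given here measure only the differences between these samples.

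Interferons are secreted proteins that make cells resist virus. Type I interferons such as IFN-alpha and IFN-beta act on the Ifnar1 and Ifnar2 receptor, whose kinases activate a complex of STAT proteins with IRF9, and this complex binds the interferon-stimulated response element (ISRE) of target genes. IFN-gamma acts through its own receptor on gamma-activated sites (GAS) and induces GTPases that attack intracellular microbes as well as the genes that cut, transport and load peptides on class I MHC molecules. In brain, microglia, endothelium and infiltrating blood cells are known as strong responders, and neurons keep class I MHC genes low.

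Values are log2 MAS5 signals, the authors' summary of each probe set, where a step of 1 is a doubling. Signals were kept above the 40th percentile of the array, which lies between 5.735 and 6.054 on the log2 scale, on at least 3 of the 6 arrays, and 12903 genes were then compared through their brightest probe set. The bright Phf8 probe set had 8.23, 8.55 and 7.99 in KO hippocampus, against 9.90, 9.66 and 9.73 in WT hippocampus, and whether its probes fall in the deleted exons was not examined. The array of KO replicate 3 stood apart, with a correlation across genes of 0.9249 to 0.9405 to the other arrays, against 0.9759 to 0.9874 among the other 5. Values without it are given for many of the results. Markers of hippocampal neurons were present, with Camk2a between 13.13 and 13.45 on the KO arrays and between 13.55 and 13.63 on the WT arrays.

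Of the 43 genes, 37 passed the signal filter and were compared. Isg15, the ubiquitin-like modifier, lies on a probe set shared with another gene and Ifi44 has no probe set of its own in the gene table, so neither is given a value. Irf7, Mx1, Mx2 and Cxcl10 lay under the filter, with log2 signals over the 6 arrays of 5.25 to 6.21 for Irf7, 3.86 to 5.25 for Mx1, 2.59 to 3.79 for Mx2 and 3.12 to 6.49 for Cxcl10. These are a master regulator of interferon production, a pair of antiviral GTPases and a chemokine that are low in resting tissue. Of the 37, 29 were above the filter on all 6 arrays, whereas Isg20 passed on the WT arrays alone and was on no KO array above it, so it had to differ in order to pass.

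Rsad2 and Isg20 were lower on all 3 KO arrays than on all 3 WT arrays, where both were clearly above the filter level. On its brightest probe set, Rsad2 was above that level on all 3 KO arrays as well. Rsad2 encodes viperin, an antiviral enzyme of the endoplasmic reticulum that makes a chain-terminating nucleotide. Its brightest probe set, 1436058_at, had 7.15, 7.24 and 7.04 in KO hippocampus, against 9.88, 10.04 and 9.32 in WT hippocampus. The means were 7.14 ± 0.10 in KO and 9.745 ± 0.38 in WT (SD, n = 3 each), a difference of -2.60 on the log2 scale, or 6.07-fold lower, with a standard error of 0.21. The highest KO array lay 2.07 below the lowest WT array.

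The other two probe sets of Rsad2 repeated the direction in their own signals. Probe set 1421009_at had 5.60, 5.67 and 5.93 in KO, against 8.59, 8.35 and 8.06 in WT. Probe set 1421008_at had 6.19, 5.10 and 5.72 in KO, against 8.52, 7.99 and 7.66 in WT. On both, the KO arrays sat at the level of the signal filter, so the log2 differences of -2.60 and -2.38 depend on how background is treated, and with 20 signal units added before log2 they were -2.22 and -2.0. The brightest set gave -2.44 under the same offset.

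Isg20 encodes an exonuclease that degrades single-stranded RNA. Its 1 probe set had 6.00, 5.24 and 5.76 in KO hippocampus, against 8.31, 8.58 and 7.99 in WT hippocampus. The means were 5.67 ± 0.39 in KO and 8.29 ± 0.30 in WT (SD, n = 3 each), a difference of -2.62 on the log2 scale, and of -2.23 with the offset. All 3 KO values lie under the filter level of their array, so no fold is given and the size of the difference depends on how background is treated. Without KO replicate 3 the differences were -2.55 for Rsad2 and -2.67 for Isg20, so neither rests on that array. In bulk tissue, fewer cells of a type and less RNA per cell cannot be told apart.

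**Figure D1:**
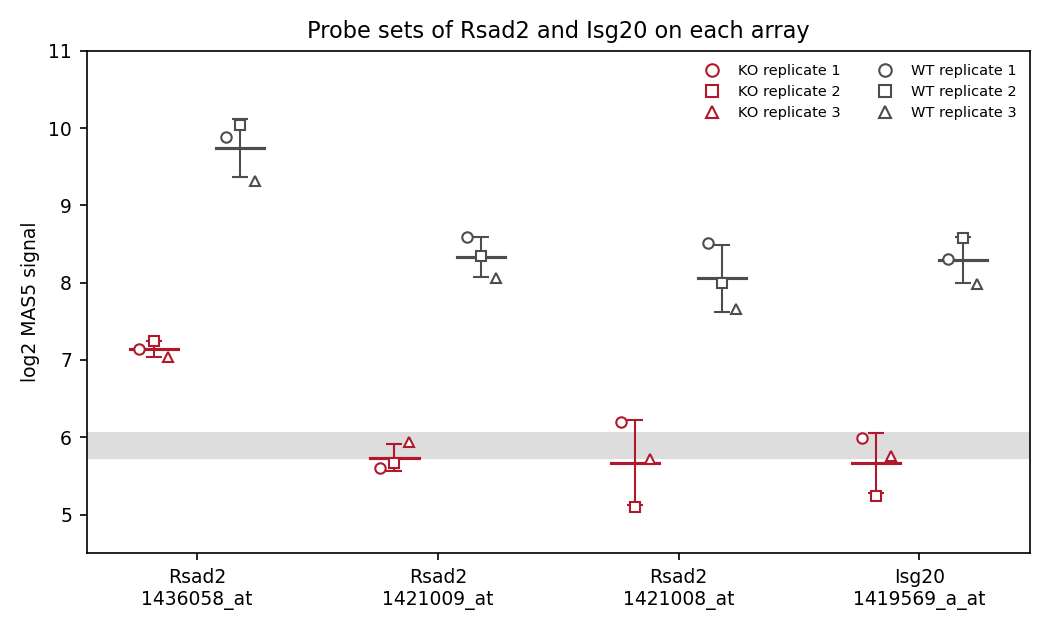
Log2 MAS5 signal (y axis) of the 3 Rsad2 probe sets and the Isg20 probe set on each array, KO in red and WT in grey, with horizontal bars at the mean and error bars of 1 SD, and a grey band from 5.735 to 6.054 for the filter level of the arrays. The KO arrays of Rsad2 1436058_at lie between 7.04 and 7.24, those of the other sets lie in or near the band, and all WT arrays lie at 7.66 or above.

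At an adjusted p of 0.05 in limma, 2 of the 37 genes were called lower in KO, Rsad2 and Isg20, and 0 were called higher. Over all 12903 genes the called share was 0.062% lower (8 genes) and 0% higher, and since the pair was picked by this contrast, and Isg20 passed the filter only through WT arrays, these counts describe the choice and are no test of it. By single probe sets, 2 of the 51 kept ones were called lower, both of Rsad2, against 0.0219% of all 27408 kept probe sets. The dimmer of them, 1421009_at, was above the filter on no KO array, so like Isg20 it had to differ in order to pass. Its call is therefore no test.

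The promoters of this pair and of a pair of type I targets with nearly equal signal in both groups are shown, because these letters are where interferon-activated factors are known to bind. They are RefSeq promoters of GRCm38.p6, from 250 bases before to 50 bases after the gene's start, read 5′ to 3′ on the gene's strand. Capitals mark the ISRE core GAAANNGAAA (TTTCNNTTTC when it lies on the other strand) and the GAS core TTCNNNGAA (which reads the same on both strands). Bst2 and Ifit3 were taken as the type I targets with the smallest difference among those that hold the ISRE core. The Rsad2 promoter is chr12:26456403-26456702 on the minus strand, that of Isg20 chr7:78913174-78913473 on the plus strand, that of Bst2 chr8:71537423-71537722 on the minus strand and that of Ifit3 chr19:34583279-34583578 on the plus strand.
Rsad2: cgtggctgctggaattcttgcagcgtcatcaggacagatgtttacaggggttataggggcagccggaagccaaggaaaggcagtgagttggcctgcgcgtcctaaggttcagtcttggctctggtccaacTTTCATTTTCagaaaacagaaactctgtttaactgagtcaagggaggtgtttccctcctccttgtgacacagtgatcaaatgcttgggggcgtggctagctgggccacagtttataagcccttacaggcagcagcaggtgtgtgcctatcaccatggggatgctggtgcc
Isg20: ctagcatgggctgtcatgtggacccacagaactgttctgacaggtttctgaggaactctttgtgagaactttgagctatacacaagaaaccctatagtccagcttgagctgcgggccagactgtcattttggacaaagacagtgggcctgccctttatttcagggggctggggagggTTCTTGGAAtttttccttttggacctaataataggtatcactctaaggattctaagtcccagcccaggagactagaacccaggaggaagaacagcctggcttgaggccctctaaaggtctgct
Bst2: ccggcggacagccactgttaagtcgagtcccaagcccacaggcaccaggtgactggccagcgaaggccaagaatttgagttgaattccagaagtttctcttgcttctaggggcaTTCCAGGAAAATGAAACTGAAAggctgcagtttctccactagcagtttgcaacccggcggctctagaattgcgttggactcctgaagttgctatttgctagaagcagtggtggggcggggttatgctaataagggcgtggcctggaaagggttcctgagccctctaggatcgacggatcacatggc
Ifit3: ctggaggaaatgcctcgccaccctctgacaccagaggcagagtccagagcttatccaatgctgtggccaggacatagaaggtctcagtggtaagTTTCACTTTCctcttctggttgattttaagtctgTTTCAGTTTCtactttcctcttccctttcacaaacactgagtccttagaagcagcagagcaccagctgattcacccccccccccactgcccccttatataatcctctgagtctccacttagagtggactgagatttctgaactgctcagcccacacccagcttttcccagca

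Positions are counted from the gene's start at the first base of the match. The Rsad2 promoter holds 1 ISRE core at -120 and no GAS core. Isg20 has 3 starts in the table, and the 1 shown holds a GAS core at -73 and no ISRE core, while the other two hold neither. Bst2 holds ISRE cores at -130 and -124, which overlap each other, and a GAS core at -136 that overlaps the first of them. Ifit3 holds ISRE cores at -156 and -122. A match describes the letters and not a bound site, and its absence says only that the letters are not in this window.

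The ISRE core lies in 3.44% of the 32851 promoters of the table and the GAS core in 8.3%. Promoters were found for 35 of the 43 genes, and 17 of these genes hold the ISRE core and 10 the GAS core. Apart from Rsad2, the 14 compared genes with an ISRE core had a median KO minus WT difference of -0.06 and none below -0.67. Apart from Isg20, the 15 compared genes with a promoter but no ISRE core had a median of -0.05 and none below -0.83. Since Rsad2 and Isg20 were chosen for their size, their distance from these medians is no finding.

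The other type I targets went in both directions, and most differed little between the groups next to their spread. Of the 22 listed type I targets, 20 had a probe set and 17 were compared. The 15 other than Rsad2 and Isg20 had a median difference of -0.10, with 10 lower and 5 higher on average, and a range of -0.83 for Oasl1 to 0.48 for Ifit2. Their median deviation from the WT mean was 0.21, -0.13 and -0.39 in KO replicates 1, 2 and 3, so the KO arrays differed in direction among themselves, and without KO replicate 3 the median difference was 0.04. None of the 15 was called in limma.

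Ifit1, Ifit2 and Ifit3, clustered genes for proteins that bind viral RNA ends, went in no common direction. Ifit2 had 8.23, 8.02 and 8.23 in KO hippocampus, against 7.97, 7.39 and 7.70 in WT hippocampus, with a difference of 0.48 (standard error 0.19). Every KO array of Ifit2 lay above every WT array, the opposite of Rsad2. Ifit3 had 8.12, 7.98 and 8.28 in KO, against 7.97, 8.05 and 8.0 in WT, a difference of 0.12 with overlap between the groups. Ifit1 had 6.41, 6.21 and 5.52 in KO, against 6.21, 6.74 and 6.22 in WT, a difference of -0.34 that also overlaps.

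Oasl1, an oligoadenylate synthetase-like protein that in mouse restrains Irf7 translation, and Ifi35, a binding partner of Nmi, were below WT on all 3 KO arrays. Oasl1 had 6.15, 6.24 and 4.60 in KO hippocampus, against 6.43, 6.71 and 6.35 in WT hippocampus. Its difference of -0.83 (standard error 0.47) rests mainly on KO replicate 3, and without that array it was -0.30. Ifi35 had 7.95, 8.03 and 7.76 in KO, against 8.17, 8.32 and 8.07 in WT, a difference of -0.27 (standard error 0.15). The Ifi35 groups are separated by only 0.04, and its 2 dimmer probe sets differed by -0.40 and -0.74. The related Oasl2 had a difference of -0.07 with overlapping arrays.

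Bst2, the tetherin that holds budding virus to the cell, had 7.30, 6.54 and 6.79 in KO hippocampus, against 7.14, 7.21 and 6.44 in WT hippocampus. The 2 type I targets with the highest signal were Ifi27, a mitochondrial and nuclear envelope protein, and Ifitm3, which blocks fusion of virus with endosomes. Ifi27 had 10.97, 10.61 and 10.11 in KO, against 10.70, 11.09 and 10.42 in WT, a difference of -0.17. Ifitm3 had 10.22, 9.72 and 9.63 in KO, against 9.94, 10.38 and 9.71 in WT, a difference of -0.16. For all 3 genes the arrays of the groups are interleaved. The rest of the type I targets lay between -0.31 for Ifitm2 and 0.35 for Lgals3bp, with Parp14 at -0.14, Xaf1 at -0.10, Eif2ak2 at 0.23 and Rtp4 at 0.33.

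**Figure D2:**
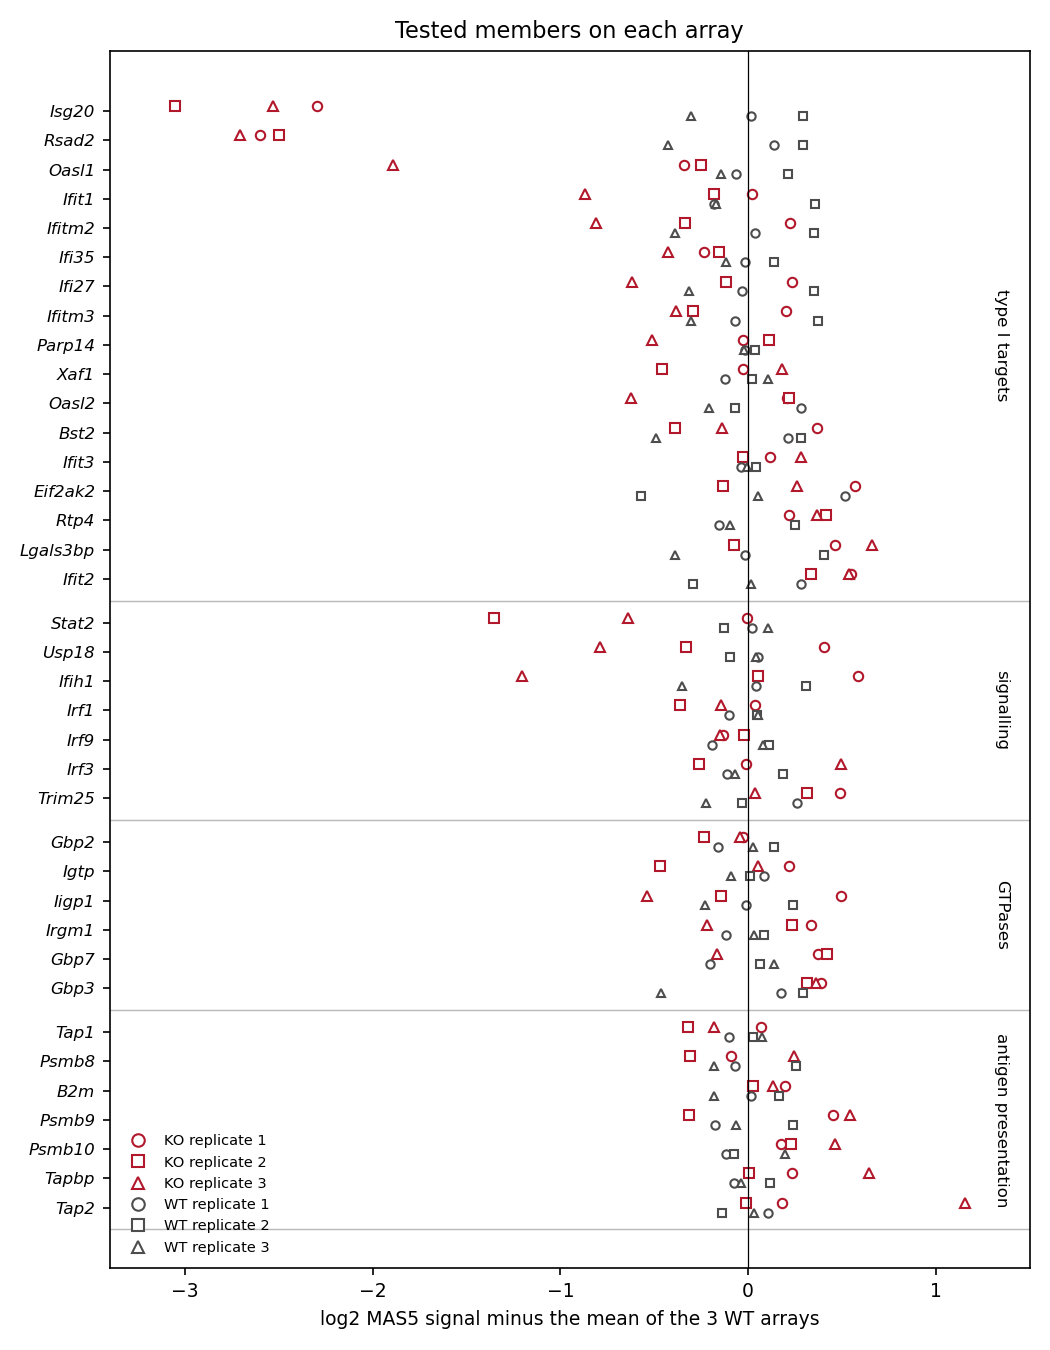
Log2 MAS5 signal after the WT mean was subtracted (x axis) for each of the 37 compared genes (y axis, by role), with 1 point for each array, KO in red and WT in grey. On all 3 KO arrays Rsad2 and Isg20 lie more than 2 below the WT mean, while the 35 other genes average between -0.83 and 0.48.

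The genes that carry the interferon signal inside the cell showed no call. Of 8 listed, 7 were compared, 5 lower and 2 higher on average, with a median difference of -0.16 and of -0.08 without KO replicate 3. Irf3, the factor that starts interferon production, had 8.90, 8.65 and 9.41 in KO hippocampus, against 8.80, 9.10 and 8.84 in WT hippocampus. That probe set carries the suffix _x_at, which marks probes that may bind other transcripts, and the 2 other kept sets of Irf3 differed by -0.08 and 0.07. Irf1, a factor induced by IFN-gamma, had 8.40, 7.998 and 8.22 in KO, against 8.26, 8.41 and 8.42 in WT. Neither Irf3 nor Irf1 separated the groups.

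Stat2 and Irf9, the partners of the ISRE-binding complex, were measured at modest signal. Irf9 had 7.71, 7.82 and 7.69 in KO hippocampus, against 7.65, 7.95 and 7.92 in WT hippocampus, a difference of -0.10. Stat2 had 6.72, 5.37 and 6.09 in KO, against 6.75, 6.60 and 6.84 in WT, a difference of -0.67 (standard error 0.36). All Stat2 KO arrays but replicate 1 lay under the WT range, and the second Stat2 probe set differed by -0.02, so the 2 sets disagree. Usp18, which strips ISG15 from proteins and damps the receptor, differed by -0.24 and by 0.04 without KO replicate 3. Ifih1, a sensor of double-stranded RNA, differed by -0.19 with 5.70 in KO replicate 3 alone under its other values of 6.55 to 7.49, and Trim25, a ubiquitin ligase of RNA sensing, by 0.28.

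The interferon-induced GTPases, which coat and break the vacuoles of intracellular microbes, were centred on their WT level. All 6 were compared, 3 lower and 3 higher, with a median of 0.03 and of 0.23 without KO replicate 3. Irgm1 had 8.55, 8.45 and 7.99 in KO hippocampus, against 8.10, 8.30 and 8.25 in WT hippocampus. Igtp had 8.22, 7.53 and 8.05 in KO, against 8.08, 8.004 and 7.91 in WT. Both overlap between the groups, with KO replicates more spread than WT replicates.

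Gbp3 was the 1 GTPase without overlap. It had 7.26, 7.19 and 7.23 in KO hippocampus, against 7.04, 7.16 and 6.41 in WT hippocampus, a difference of 0.35 (standard error 0.24). Its KO arrays lay close together, and the lowest of them was 0.02 above WT replicate 2, so the difference comes mainly from WT replicate 3. Gbp2 differed by -0.10, Gbp7 by 0.21 and Iigp1 by -0.06. The second probe set of Iigp1 differed by -0.54, with 6.44, 5.92 and 5.46 in KO, against 6.36, 6.62 and 6.45 in WT.

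**Figure D3:**
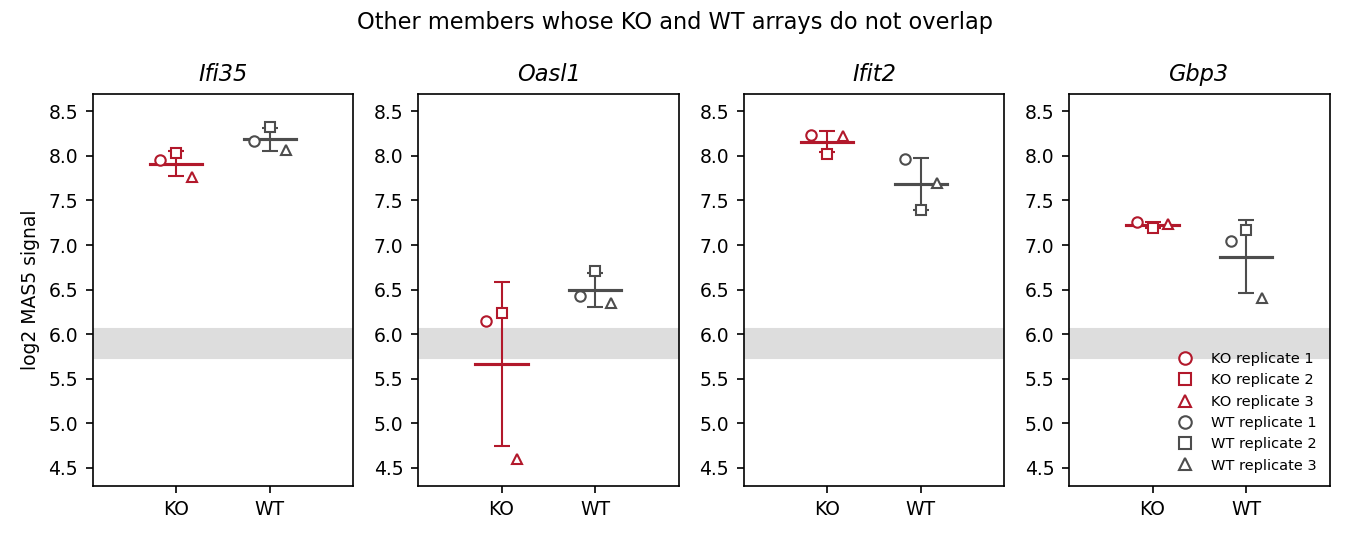
Log2 MAS5 signal (y axis) of Ifi35, Oasl1, Ifit2 and Gbp3 on each array, KO in red and WT in grey, with the mean and 1 SD, and a grey band from 5.735 to 6.054 for the filter level. Ifi35 and Oasl1 lie lower and Ifit2 and Gbp3 higher on every KO array than on every WT array, and the Oasl1 mean is pulled down by the 4.60 of KO replicate 3.

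The antigen presentation genes leaned upward without a call. All 7 were compared, 2 lower and 5 higher on average, with a median of 0.23 that shrank to 0.08 without KO replicate 3. On that array their median deviation from the WT mean was 0.47, against 0.18 and -0.01 in KO replicates 1 and 2. B2m, the light chain of class I MHC, had 12.38, 12.21 and 12.31 in KO hippocampus, against 12.20, 12.35 and 11.998 in WT hippocampus, a difference of 0.12 with the smallest standard error of the set (0.11). Psmb10, a catalytic subunit of the immunoproteasome, had 10.13, 10.19 and 10.42 in KO, against 9.84, 9.88 and 10.15 in WT, a difference of 0.29. The Psmb10 groups overlap only through WT replicate 3.

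The other immunoproteasome subunits Psmb8 and Psmb9 differed by -0.05 and 0.23. The peptide transporter genes Tap1 and Tap2 differed by -0.15 and 0.44. Tap2 had 6.84, 6.65 and 7.81 in KO hippocampus, against 6.77, 6.52 and 6.69 in WT hippocampus, so that its difference came from KO replicate 3 and was 0.08 without it. Tapbp, tapasin, which holds class I molecules to the transporter, differed by 0.29 and by 0.12 without that array.

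Set side by side, the 35 genes other than Rsad2 and Isg20 had a median difference of -0.06, with 20 lower and 15 higher, against 0.01 over all genes compared. Of the 35, 33 were within 0.5 of 0 on the log2 scale. None was called, with a lowest adjusted p of 0.659 in limma, and 1 had an unadjusted p under 0.05, Ifit2, where 7.48% of all genes did. Their standard errors ran from 0.11 to 0.467 with a median of 0.236. The 95% confidence intervals of their differences lay within -1.92 and 1.20, and 34 of the 35 held 0, the exception being Ifit2 with 0.03 to 0.92.

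Groups without overlap were seen for 4 of the 37 genes in the lower direction, Rsad2, Isg20, Ifi35 and Oasl1, and for 2 in the higher direction, Ifit2 and Gbp3. The share over all genes was 7.13% lower and 9.56% higher. Past the 1.5-fold difference that the study used were 4 genes lower, Rsad2, Isg20, Oasl1 and Stat2, and 0 higher, where the share over all genes was 2.03% lower and 4.15% higher. Without KO replicate 3, the 35 other genes had a median difference of 0.05, a range of -0.68 to 0.44, 1 past 1.5-fold and 0 called, with a lowest adjusted p of 0.316 in limma.

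The arrays differed in where the set lay, without a common direction in KO. The median deviation of the 35 genes from their WT mean was 0.21, -0.13 and -0.14 in KO replicates 1, 2 and 3, and -0.04, 0.11 and -0.07 in WT replicates 1, 2 and 3. Of the 37 genes, 11 had their highest value in KO replicate 1, where 12.3% of all genes did, and 11 in WT replicate 2, where 10.3% of all genes did. None had its lowest value in KO replicate 1, where 8.15% of all genes did, while 13 had it in KO replicate 3 and 10 in KO replicate 2, where 36.4% and 19.8% of all genes did. Members varied somewhat more between replicates than genes in general, with a median pooled SD of 0.277 against 0.222.

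Genes of the pathway outside the set were taken from lists. Of 18 interferon genes themselves, 10 had a probe set and 0 passed the filter, with no signal above 6.12 on any array. Of the interferon receptors and their kinases, 13 of 16 were compared, 7 lower and 6 higher, 0 called, with a median of -0.04. Ifnar2, a chain of the type I receptor, had 9.27, 9.05 and 8.95 in KO hippocampus, against 8.67, 8.73 and 8.50 in WT hippocampus, a difference of 0.45 (adjusted p = 0.586 in limma). Every KO array of Ifnar2 lay above every WT array. The kinase Jak2 differed by -0.26, with every KO array below every WT array, and the shared receptor chain Il10rb differed by 0.35 with overlap. Of the 13, 1 was lower and 1 higher without overlap, where 7.13% and 9.56% of all genes were.

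Of the nucleic acid sensors and adaptors, 15 of 26 were compared, 8 lower and 7 higher, 0 called, with a median of -0.04. The sensor of cytosolic DNA Cgas differed by -0.76, the factor Irf5 by -0.60 and the adaptor Myd88 by -0.42, with adjusted p-values of 0.562 to 0.673 in limma. Of 62 other interferon-induced genes, 31 were compared, 18 lower and 13 higher, 0 called, with a median of -0.05. Ube2l6, the enzyme that conjugates ISG15 to proteins, had 5.30, 4.51 and 4.73 in KO hippocampus, against 7.55, 6.74 and 7.22 in WT hippocampus. All 3 KO arrays of Ube2l6 lay under the filter, so like Isg20 it had to differ in order to pass, and its difference of -2.32 is given with no test. It was not among the called genes, and counted as 1 called gene of this list without KO replicate 3. The share of all genes called without that array is not given. Calls in that setting, here and below, therefore have no background beside them.

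Slfn2 differed by -0.65 and Gbp6 by 0.54, neither called. Cmpk2, a type I target that adjoins Rsad2 in the mouse genome and was named after its values were seen, had 9.24, 9.42 and 8.96 in KO hippocampus, against 9.13, 9.15 and 9.30 in WT hippocampus, a difference of 0.01. The arrays of this neighbour of Rsad2 are interleaved between the groups.

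Of 34 MHC and other antigen presentation genes, 20 were compared, 12 lower and 8 higher, 0 called, with a median of -0.07. Cd74, the invariant chain of class II MHC, had 7.03, 6.35 and 6.39 in KO hippocampus, against 7.55, 7.82 and 7.42 in WT hippocampus, a difference of -1.01 (adjusted p = 0.531 in limma). Ctss, a protease that trims that chain, differed by -0.49 (adjusted p = 0.285 in limma, and 0.043 without KO replicate 3), and the chaperone Calr by -0.40. Cd74 and Ctss were lower on every KO array than on every WT array, as were 4 of the 20 genes of the list in all, and 2 were higher without overlap. The share over all genes was 7.13% lower and 9.56% higher.

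Marker lists of blood and brain cells were laid beside the 2 low genes. Of 15 erythroid genes, 8 were compared, 7 lower and 1 higher, with a median of -2.25 (-2.09 without KO replicate 3). The 4 called lower were Hbb-b2, Tent5c, Alas2 and Slc25a37, where 0.062% of all genes were called lower. All KO arrays of Hbb-b2 and Slc4a1 lay under the filter, so like Isg20 both had to differ in order to pass. The Hbb-b2 call is therefore no test. The list was uneven. Without overlap, 6 of the 8 were lower (7.13% of all genes), but Hba-a2 differed by -0.38 with overlapping arrays and Ank1 by 0.20. The summed signal of the 8 genes, which includes Hbb-b2 and Slc4a1, was 2786 to 3411 on the KO arrays and 6938 to 7548 on the WT arrays, without overlap. Alas2, which starts heme production in developing red cells, had 6.63, 4.62 and 4.65 in KO hippocampus, against 10.43, 10.39 and 10.15 in WT hippocampus. Hbb-b2 shares most of its sequence with its sister globin gene, so its signal may include the other gene's. Of 11 neutrophil genes, 7 were compared, all 7 lower on average, with 0 called and a median of -0.38 (-0.22 without KO replicate 3). Their summed signal was 385 to 404 on the KO arrays and 829 to 2285 on the WT arrays. S100a8 had 5.75, 6.38 and 6.24 in KO hippocampus, against 7.76, 8.24 and 7.60 in WT hippocampus. Lcn2 had 2.78, 4.53 and 5.24 in KO, against 9.97, 10.49 and 7.52 in WT, so the sum leans on it in WT replicates 1 and 2. Without KO replicate 3, S100a8 and Lcn2 were called, again with no share over all genes beside them. All KO arrays of Lcn2 and of S100a9 lay under the filter, so both had to differ in order to pass. The Lcn2 call is therefore no test. Ngp, Ltf, Csf3r and Mmp9 differed by -0.10, -0.13, -0.14 and -0.38, with overlapping arrays. The summed signals of both lists include genes that had to differ in order to pass, so their separation of the groups is no test. It had the same direction as the differences of Rsad2 and Isg20, and the part of both lists in those differences was not tested.

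Lists of brain cells and neighbouring tissue differed in direction. Microglia markers (12 compared) had a median of -0.06 and astrocytes (9) of about 0, with 0 called in each. Endothelium markers (10) had a median of 0.05 with 0 called, and of 0.13 with 1 called higher without KO replicate 3. Their summed signal was 11340 to 12810 on the KO arrays and 9855 to 10450 on the WT arrays, without overlap. That sum leans on the brightest gene, Itm2a, which differed by 0.35, while 7 of the 10 genes were higher and 3 lower on average. Of 10 T and NK cell genes 1 passed the filter and of 8 B cell genes 2 did. Hippocampal neuron markers had a median of -0.30 (-0.18 without KO replicate 3), with 9 of 10 lower and 0 called. Their summed signal was 23450 to 28930 on the KO arrays, lowest in KO replicate 3, and 30700 to 32490 on the WT arrays. These sums did not overlap, in the direction of Rsad2 and Isg20. Ependyma markers had a median of 0.71 (0.46 without KO replicate 3), with 9 of 9 higher and 0 called. Of these, 3 were higher without overlap, where 9.56% of all genes were. Markers of meninges and fibroblasts had a median of 0.46 with 0 called, and of 1.05 with 1 called higher without KO replicate 3. Thalamus markers had a median of 1.03 (0.18 without KO replicate 3), set by that array, where their median was 2.73 above the WT mean. Choroid plexus markers had a median of -0.33 (0.81 without KO replicate 3). Their median deviation ran from -2.07 in KO replicate 3 to 1.31 in KO replicate 1. The part of these marker differences in the values of Rsad2 and Isg20, or of Tap2, Oasl1 and Ifih1, which leaned on KO replicate 3, was not tested.

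**Figure D4:**
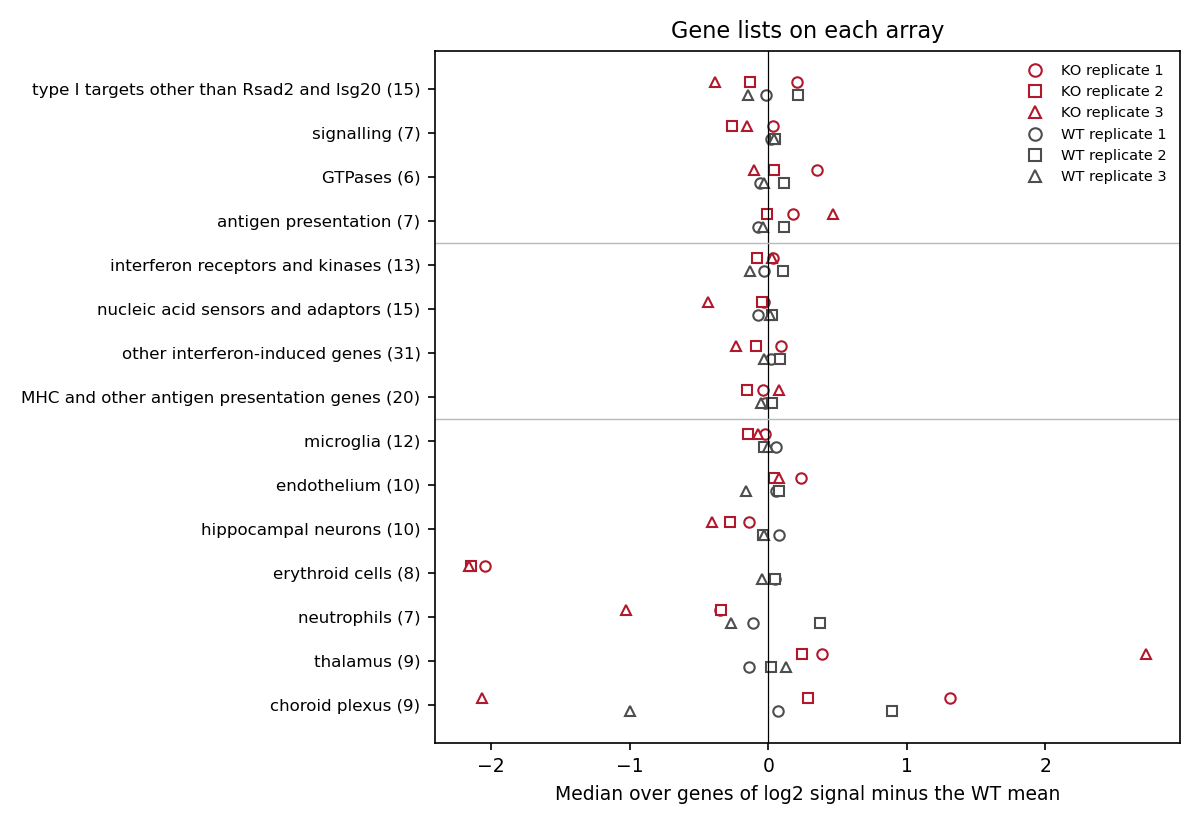
Median over the compared genes of each list of the log2 signal minus the WT mean (x axis), with 1 point for each array, KO in red and WT in grey, and the number of genes in brackets (y axis). The median of the 15 type I targets other than Rsad2 and Isg20 runs from -0.39 to 0.21 over the KO arrays. That of the 8 erythroid genes lies between -2.16 and -2.04 on all 3 of them.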

How the data were processed

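Expression was measured in hippocampus of 3 Phf8 KO and 3 WT samples on 1 array each. The deposited values are log2 MAS5 signals for 45037 probe sets. The authors had scaled the arrays to a common trimmed mean (497.49 to 498.23 after 2% was trimmed at each end). Per the submitters' processing notes the tools were MAS5 and affy, with no version given, and the methods name GeneSpring and a filter on Absent calls. MAS5 summarises each array on its own, and the dimmest log2 values reach -4.62.

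A signal filter stood in for the Absent calls. It asked for the 40th percentile to be passed on 3 or more arrays and left 27408 probe sets. Of all probe sets, 34945 carry 1 symbol, 932 several and 9160 none in the gene table used. Where several kept probe sets named 1 gene, the one with the highest mean stood for it. KO minus WT was fitted over 12903 genes with limma 3.58.1 in R 4.3.3 (eBayes with trend) and Benjamini-Hochberg adjustment, a fit tested on simulated data first. A fold of 1.5 was taken from the difference of means. Precision is limited by having 3 arrays a group.

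The genes of the set, the pathway and marker lists and the promoters were chosen with earlier results of these data known. Values on every array are given for Rsad2, Isg20, each gene without overlap between groups and the 2 brightest genes of each role, and of the other lists up to 3 genes with the smallest p are named. Values on every array are added for Ifit1, Ifit3, Bst2, Irf9, Stat2, Tap2, Cmpk2 and a second Iigp1 probe set after they were seen, and Slc25a37 is named as a called gene. Also named after their values were seen are Slc4a1, Hba-a2 and Ank1 of the erythroid list and Ngp, Ltf, Csf3r and Mmp9 of the neutrophil list. Alternatives were other normalizations and filters, 20 signal units added before log2, a variance model without trend, array weights estimated gene by gene, the replicate number as a block, the mean of probe sets, other fold limits and each array left out. No coordinates other than those of the RefSeq promoters are given.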

Additional observations from a re-analysis of the deposited data

How the results depend on the processing

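Rsad2 differed by -2.82 to -2.44 over the 16 alternative settings, and Isg20 by -2.79 to -2.23 over the 13 in which it was measured. It could not be fitted without a WT array, since it then fails the filter. No other gene of the set was called in any setting, and 16 of those 35 changed sign in at least 1. The 2 calls, of genes chosen by this contrast, became 1 with no filter, 0 by eBayes without trend (where 3 genes have an unadjusted p under 0.05) and 0 to 2 with an array left out. Of the probe sets, 2 were called, against 0 with no filter, 0 without trend, 4 with array weights and 0 to 4 with an array left out. Genes without overlap numbered 4 lower (3 to 9 with an array left out) and 2 higher (1 with the filter at the 60th percentile, 3 to 7 with an array left out). The median difference of -0.07 was 0.11 with array weights. Past the smaller fold limit tried lay 5 genes higher, against 0 past 1.5-fold, and past 2-fold lay 2 lower, against 4 past 1.5-fold. The causes of these changes were not tested.

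The labels do not say whether the replicate numbers pair the samples. Deviations of equal-numbered arrays correlated at -0.0385, 0.066 and 0.131, and those of unequal numbers at -0.162 to 0.202, which does not decide it. With the replicate block, 1 gene and 0 probe sets of the set were called. An exact permutation test of 3 arrays against 3 cannot go below p = 0.1. Dim signals limit the size of the Isg20 difference and of 2 Rsad2 probe sets.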
